A study of Mus musculus with 6 samples.

Results

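Ppp2r2c, which encodes a regulatory B subunit of protein phosphatase 2A (PP2A), was examined together with 9 other PP2A subunit genes in p53 null mammary epithelial cells (MECs) after transient exposure to tamoxifen. The 10 genes were taken by name as rows of the deposited table with a single gene symbol, and they have 11 probesets (sets of probes read as 1 value) of 22369, or 10 genes of the 17418 named by a probeset of their own. Where a gene has several probesets, the one with the highest mean over all arrays stands for it. Ppp2r2c was selected on its intensity difference between the groups in these same arrays, so its levels are given as a description, with no test. The other 9 genes were taken as members of the PP2A family.

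Gene expression was compared between 3 tamoxifen pools and 3 sham (control) pools of MECs, each pool on its own Affymetrix mouse array. The labels give Balb/c hosts that are wild type for p53 and carry transplanted ductal fragments from 8-week-old Balb/c p53-null donors in inguinal fat pads cleared at 3 weeks of age, so the epithelium of both groups lacks p53 while the surrounding stroma is that of the host. Mice of the tamoxifen group carried a 5 mg tamoxifen pellet under the skin for 13 weeks and were sampled 4 weeks after its removal. Control mice carried a sham pellet, and every mouse of both groups received 100 μg of 17β-estradiol (E2) 8 h before collection. The labels give a host age of 8 weeks at pellet placement and pools of 3 to 5 mice, while the paper's methods give a later host age and the series design 5 mice per pool. Tamoxifen is a selective estrogen receptor modulator, so the comparison asks what remained different in E2 treated MECs after the drug was withdrawn. Values are intensities on a linear scale as deposited, and differences are tamoxifen minus control on the log2 scale, where 1 is a doubling.

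PP2A is one of the main serine/threonine phosphatases of the cell. Its core pairs a catalytic C subunit with a scaffold A subunit, and a regulatory B subunit joins the core, which steers the enzyme to its substrates and to its place in the cell. The B subunits fall into unrelated families, B55 (the Ppp2r2 genes), B56 (Ppp2r5), B'' (Ppp2r3) and the striatins, and different holoenzymes act on MAP kinase, AKT and Wnt signaling and on the exit from mitosis.

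Mean intensity per array ran from 395.1 to 403.4 and the median from 129.5 to 136.3, and correlations of log2 intensity were 0.989 to 0.992 among tamoxifen pools, 0.991 to 0.994 among control pools and 0.983 to 0.991 between the groups. The epithelial markers Epcam, Cdh1 and Krt18 summed to 21089 to 22188 in tamoxifen pools and 22290 to 22987 in control pools, and host cell markers were present too. The summed level of 4 endothelial markers was 10035 to 10242 in tamoxifen pools against 8036 to 9467 in control pools, and that of 3 lymphocyte markers was 3874 in tamoxifen pool 2 against 1234 to 2013 in the other 5 pools. The summed level of 9 proliferation markers was 1303 to 1805 in tamoxifen pools, and in control pools it was 4606, 2596 and 2307, with control pool 1 far above the others. In bulk RNA of this kind, fewer cells of a type and less RNA per cell cannot be told apart. Differences were tested with limma (two-sided), whose moderated variances borrow from the whole array, with Benjamini-Hochberg adjustment across the 22369 probesets. Genes are said to have risen or fallen only at an adjusted p under 0.05. By this rule 0.304% of all genes rose and 0.103% fell.

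Of the 4 B55 genes, Ppp2r2c stood about 4-fold higher in tamoxifen pools and its 3 paralogs were near control. Its intensity was 301, 322 and 367 in tamoxifen pools against 80.2, 85.8 and 85.2 in control pools. The groups lay far apart, and within each group the pools were close together. The mean was 329.8 ± 33.5 in tamoxifen pools and 83.7 ± 3.07 in control pools (SD, n = 3 each), a fold change of 3.93 and a log2 difference of 1.97 with an SE of 0.09. Ranked by log2 difference it was the 5th highest of 17418 genes, and 0.109% of genes had a difference of 1.5 or more. The residual SD between pools was 0.109 on the log2 scale, beside a median of 0.121 over all genes, so the spread of Ppp2r2c was that of an ordinary gene. Among all genes the intensity in control pools exceeded that of 33.5% of genes and in tamoxifen pools that of 65.5%, a place that depends on each gene's probes. The B subunit that it encodes, often called B55γ, is best known from the brain.

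**Figure D1:**
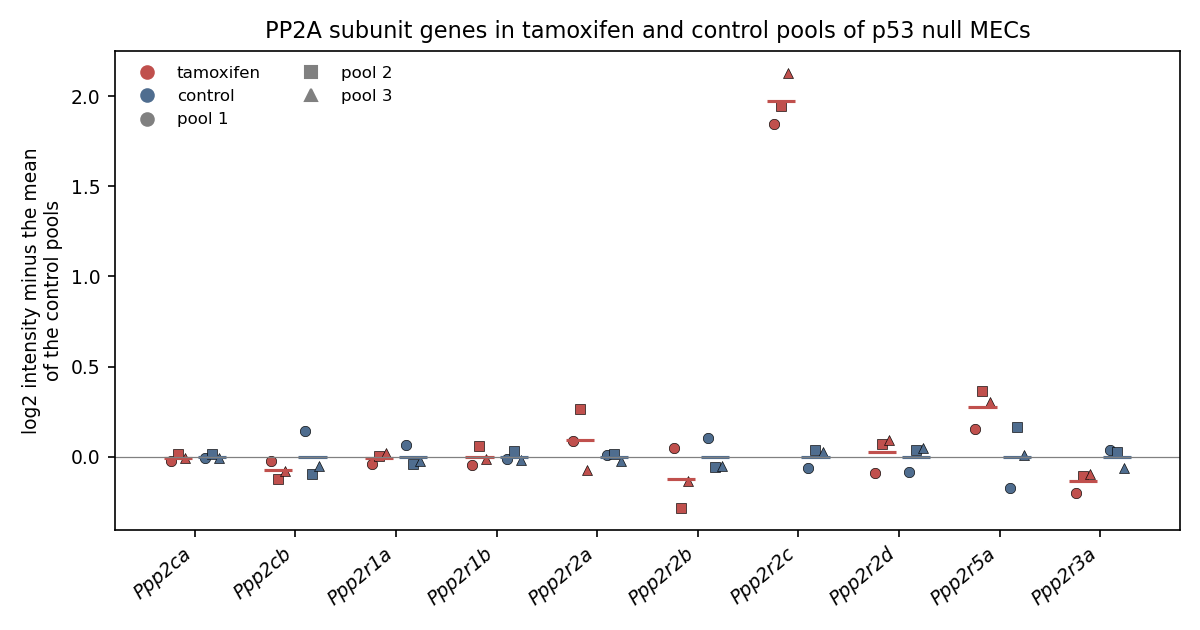
Log2 intensity of the 10 PP2A members in each pool, minus the mean of the 3 control pools of that gene. Points are single pools, tamoxifen on the left and control on the right of each gene, and bars are group means. The tamoxifen points of Ppp2r2c average 1.97 above control, and those of every other member average between -0.13 and 0.28.

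Ppp2r2a encodes B55α, a widely expressed B55 subunit that helps cells leave mitosis. It had 51.4, 58.1 and 46.0 in tamoxifen pools against 48.7, 48.8 and 47.5 in control pools, and the groups overlapped. The log2 difference was 0.09 with a 95% interval of -0.14 to 0.33 (adjusted p = 0.774 from limma). The probeset was dim, and a further probeset that the annotation shares between Ppp2r2a and another gene was not used. Ppp2r2b encodes the other B55 subunit that is best known from neurons. Its intensity was 85.6, 67.9 and 75.3 in tamoxifen pools against 89.0, 79.6 and 79.9 in control pools, also with overlap (log2 difference -0.12, 95% interval -0.38 to 0.13, adjusted p = 0.719). Ppp2r2d encodes B55δ, which is studied chiefly for its part in the timing of mitosis. It had 734, 822 and 833 in tamoxifen pools and 737, 803 and 808 in control pools, nearly the same spread in both groups (log2 difference 0.02, 95% interval -0.18 to 0.22, adjusted p = 0.940).

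The start regions of Ppp2r2c and of its paralog Ppp2r2d are shown because one gene differed widely between the groups and the other did not. RefSeq sequences (GRCm38.p6) were at hand for 7 of the 10 members, with 9 starts in all, and the 250 bases before a start were read. Ppp2r2c lies on the plus strand at chr5:36868260-36868509 and the first of the starts of Ppp2r2d on the plus strand at chr7:138846109-138846358. Capitals mark the letters GGTCA or their reverse complement TGACC, which form each arm of the estrogen response element, and the GC box GGGCGG.
Ppp2r2c: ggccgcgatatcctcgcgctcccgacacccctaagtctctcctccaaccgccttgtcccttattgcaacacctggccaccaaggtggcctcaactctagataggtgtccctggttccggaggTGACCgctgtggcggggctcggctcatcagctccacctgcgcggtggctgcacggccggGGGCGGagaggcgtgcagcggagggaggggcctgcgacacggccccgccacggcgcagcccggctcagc
Ppp2r2d: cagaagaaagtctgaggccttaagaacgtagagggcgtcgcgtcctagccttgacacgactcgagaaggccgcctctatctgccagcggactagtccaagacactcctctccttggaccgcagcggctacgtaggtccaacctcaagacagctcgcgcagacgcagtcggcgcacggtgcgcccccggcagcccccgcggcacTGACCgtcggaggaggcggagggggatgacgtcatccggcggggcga
Both windows are rich in G and C, at 69.6% in Ppp2r2c and 65.6% in Ppp2r2d. Each holds TGACC once, 128 bases before the start in Ppp2r2c and 47 bases before it in Ppp2r2d, and 35.2% of all 32851 start regions of the same length hold GGTCA or TGACC. A GC box lies 69 bases before the start of Ppp2r2c, and 32.7% of all regions have that motif on either strand. Of the 9 member windows, 5 hold GGTCA or TGACC and 6 hold a GC box on either strand. The whole element, GGTCA and TGACC with 3 bases of any kind between them, reads the same on both strands and contains the shorter motif on each side. It was in 0 of the 9 member windows and in 0.0639% of all. The AP-1 motif TGANTCA was in 0 of the 9 windows and in 6.75% of all. The motifs were chosen with the expression values known, and a match in a window is a description of its letters.

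The measured neighbours of Ppp2r2c on chromosome 5 were near control, apart from Mrfap1, which was too scattered to place. In RefSeq order the 4 nearest measured genes on one side are Man2b2, Mrfap1, Bloc1s4 and D5Ertd579e, and on the other side Wfs1, Jakmip1, Gm1043 and Crmp1. Of these 8 genes 0 rose and 0 fell by limma. At an unadjusted p under 0.05, 0 were higher and 0 lower, against 6.91% and 6.3% of all genes. Wfs1, the nearest measured gene on its side, which encodes a membrane protein of the endoplasmic reticulum, had 459.6, 406 and 488 in tamoxifen pools against 393, 388 and 428 in control pools (log2 difference 0.16, 95% interval -0.07 to 0.38). Man2b2, an alpha-mannosidase gene on the other side, had 1081, 1134 and 1075 in tamoxifen pools against 986, 1054 and 1052 in control pools. Its groups did not overlap, as was the case with higher levels for 10.5% of all genes. The distance between them was small (log2 difference 0.09, 95% interval -0.07 to 0.25). Mrfap1 was dim and scattered, with 16.4, 51.0 and 42.4 in tamoxifen pools and 29.9, 57.9 and 42.8 in control pools, and its interval of -1.47 to 0.76 was the widest of the 8. RefSeq also lists a noncoding gene, Ppp2r2cos, on the opposite strand within Ppp2r2c, and it has no probeset of its own in the annotation used.

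**Figure D2:**
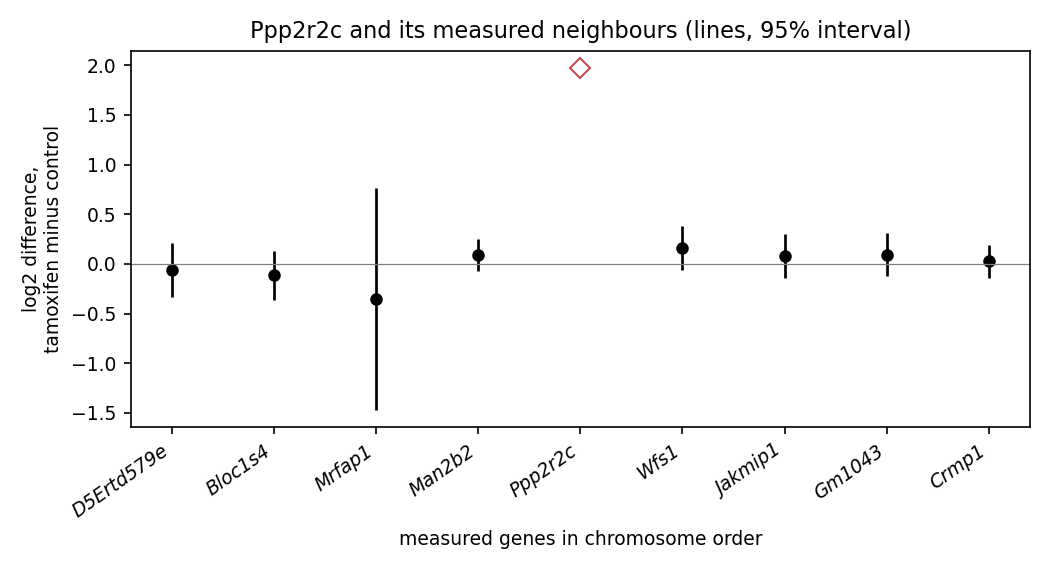
Log2 difference, tamoxifen minus control, of Ppp2r2c (open diamond) and of the 4 nearest measured genes on each side in chromosome order, with 95% intervals as lines for the neighbours. Ppp2r2c lies at 1.97, and the neighbours lie between -0.35 and 0.16.

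The catalytic subunits, which carry the phosphatase activity, were near control. Ppp2ca had 5635, 5783 and 5714 in tamoxifen pools against 5713, 5781 and 5701 in control pools. The pools of both groups lay within the same narrow range (log2 difference -0.01, 95% interval -0.15 to 0.14, adjusted p = 0.984 from limma). Ppp2cb encodes the second catalytic isoform and had 3244, 3036 and 3121 in tamoxifen pools against 3650, 3094 and 3190 in control pools. Control pool 1 was the highest and the groups overlapped (log2 difference -0.08, 95% interval -0.28 to 0.13, adjusted p = 0.794).

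The scaffold subunits, on which the holoenzyme is built, were as close to control. Ppp2r1a, the main scaffold gene of most tissues, had 4218, 4337 and 4395 in tamoxifen pools and 4527, 4212 and 4263 in control pools. The groups overlapped widely (log2 difference -0.01, 95% interval -0.17 to 0.16, adjusted p = 0.987 from limma). Ppp2r1b had 618, 666 and 635 in tamoxifen pools against 633, 655 and 632 in control pools. Group means of 639.8 ± 24.3 and 639.8 ± 12.8 (SD, n = 3 each) could hardly be closer, and the 95% interval of the log2 difference was -0.16 to 0.16.

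Among the other regulatory members, Ppp2r5a was higher and Ppp2r3a lower in tamoxifen pools, and neither difference passed the adjusted threshold. Ppp2r5a encodes B56α, a subunit known for directing PP2A to c-Myc. Ppp2r5a had 1785, 2065 and 1978 in tamoxifen pools against 1420.4, 1793 and 1613 in control pools, and only the highest control pool reached above the lowest tamoxifen pool. The log2 difference was 0.28 (SE 0.11, 95% interval 0.01 to 0.54, unadjusted p = 0.043, adjusted p = 0.387 from limma). A second, dim probeset of Ppp2r5a had 22.4, 40.7 and 25.8 in tamoxifen pools against 37.5, 25.1 and 35.4 in control pools and went the other way without a clear difference (log2 difference -0.16, 95% interval -0.79 to 0.46). Ppp2r3a encodes a calcium-binding B'' subunit and had 324, 345 and 349 in tamoxifen pools against 382, 379 and 356 in control pools. These groups did not overlap, as was the case with lower levels for 12.4% of all genes, and the difference was small (log2 difference -0.13, 95% interval -0.30 to 0.04, adjusted p = 0.512).

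Of the 9 members other than Ppp2r2c, 0 rose and 0 fell by limma or under any of 14 alternative settings, against 0.304% of all genes that rose and 0.103% that fell. At an unadjusted p under 0.05, 1 was higher and 0 were lower, against 6.91% and 6.3% of all genes. Their median log2 difference was -0.01, and over all genes it was -0.02. The 95% intervals of the 9 genes, each for 1 gene alone, ran from -0.38 at the lowest to 0.54 at the highest. No interval reached beyond a 1.45-fold rise, while smaller differences remain possible with 3 pools a group. The probesets of Ppp2r2a and Ppp2r2b were dim, below the median intensity. For 1 gene at this group size, the smallest p of an exact permutation test is 0.1.

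**Figure D3:**
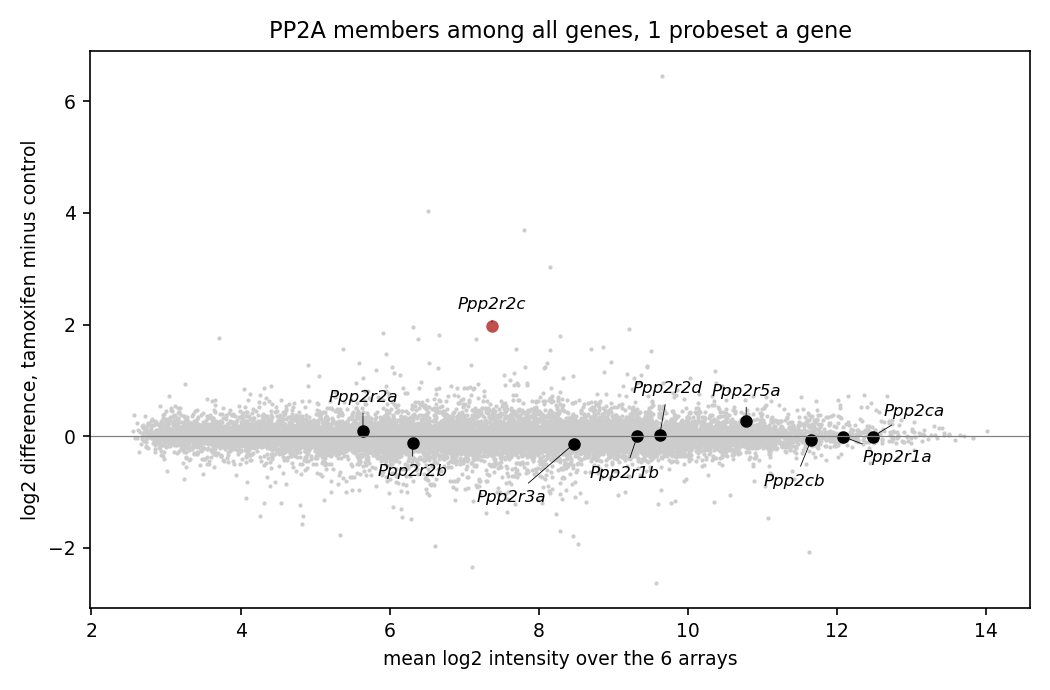
Log2 difference, tamoxifen minus control, against mean log2 intensity over the 6 arrays for 17418 genes (grey), with the 10 PP2A members marked and Ppp2r2c in red. Ppp2r2c lies at 1.97, and the other 9 members lie between -0.13 and 0.28.

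The measured PP2A subunits other than Ppp2r2c had log2 differences between -0.21 and 0.28. With the B56, B'' and striatin genes added, 17 of 18 listed subunits other than Ppp2r2c were measured, of which 0 rose and 0 fell. Without adjustment, 1 was higher and 1 lower at p under 0.05, against 6.91% and 6.3% of all genes. The median log2 difference was -0.01. The B56 genes had differences of both signs. Ppp2r5b, which encodes B56β, had 261, 238 and 239 in tamoxifen pools against 300.2, 282 and 269.9 in control pools, all below control (log2 difference -0.21, 95% interval -0.39 to -0.02, adjusted p = 0.363 from limma), whereas Ppp2r5a was above control. Ppp2r5c and Ppp2r5d also had groups that did not overlap, with log2 differences of -0.15 each, and Ppp2r5e had 0.07. In all, 1 of the 17 subunits (5.88%) lay wholly above control and 4 (23.5%) wholly below, against 10.5% and 12.4% of all genes. Ppp2r3c, a B'' gene, had a log2 difference of 0.07 (95% interval -0.13 to 0.26). Of the striatins, scaffolds that tie PP2A to kinases, Strn3 had 522, 558 and 517 in tamoxifen pools against 381, 485 and 516 in control pools. The groups did not overlap, but control pool 3 and tamoxifen pool 3 were nearly level (log2 difference 0.22, 95% interval -0.08 to 0.52, and 0.09 without control pool 1). Strn4 had -0.09.

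Genes that assemble or modify PP2A did not pass in either direction. Of 5 measured genes 0 rose and 0 fell. At an unadjusted p under 0.05, 1 was lower, against 6.3% of all genes. Lcmt1, the methyltransferase that modifies the tail of the catalytic subunit and so favours the binding of B55, had 194, 208 and 218 in tamoxifen pools against 249, 235 and 224 in control pools. Every tamoxifen pool was below every control pool (log2 difference -0.19, 95% interval -0.38 to -0.00, adjusted p = 0.402 from limma). Ppme1, the methylesterase that removes the mark, had a log2 difference of 0.01 (95% interval -0.14 to 0.16). Igbp1, which holds and protects free catalytic subunits, had 987, 992 and 1002 in tamoxifen pools against 1328, 1043 and 1038 in control pools, with control pool 1 well above the rest (log2 difference -0.18, adjusted p = 0.571, and -0.07 without that pool). Of the 5 genes 2, Lcmt1 and Igbp1, lay wholly below control and 0 wholly above, against 12.4% and 10.5% of all genes.

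**Figure D4:**
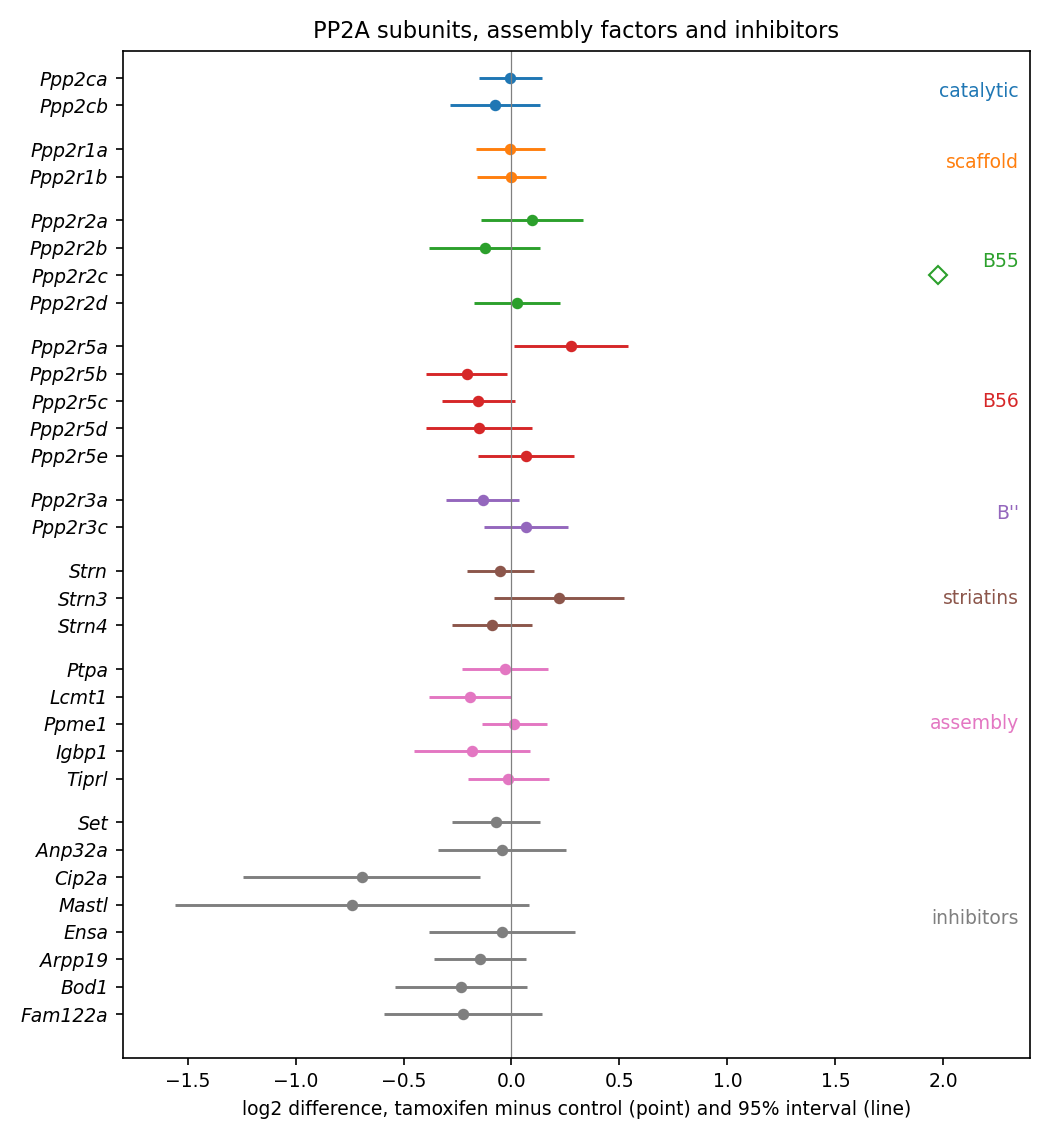
Log2 difference, tamoxifen minus control (points), with 95% intervals from limma (lines), for the measured PP2A subunits, assembly factors and inhibitors, coloured by role. Ppp2r2c (open diamond) is shown without an interval at 1.97, and the lowest values are those of Mastl at -0.74 and Cip2a at -0.69.

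All 8 measured inhibitors and mitotic regulators of PP2A had negative log2 differences, with a median of -0.19, although 0 rose and 0 fell. Over all genes 56% of differences were negative and the median was -0.02. Without adjustment 1 of the 8 was lower at p under 0.05, against 6.3% of all genes. The lowest were Mastl and Cip2a, genes that dividing cells express. Both probesets were dim, below the median intensity. With 32 added to each intensity before the log2, the difference was -0.46 in each. Cip2a encodes an inhibitor of PP2A that is raised in many tumors. It had 45.2, 52.9 and 42.7 in tamoxifen pools against 107, 68.3 and 58.9 in control pools (log2 difference -0.69, 95% interval -1.24 to -0.14, adjusted p = 0.316 from limma). Mastl encodes the Greatwall kinase, which switches off PP2A with B55 as cells enter mitosis. It had 37.9, 35.9 and 33.0 in tamoxifen pools against 106, 43.9 and 45.1 in control pools (log2 difference -0.74, 95% interval -1.56 to 0.08, adjusted p = 0.449). Neither gene's groups overlapped, and in both control pool 1 was far above the other 2 control pools. Of the 8 genes these 2 lay wholly below control and 0 wholly above, against 12.4% and 10.5% of all genes. Without control pool 1 the log2 difference was -0.44 in Cip2a (adjusted p = 0.380) and -0.32 in Mastl (adjusted p = 0.338). The same pool was the highest in the proliferation markers, whose mean log2 deviation from all pools was -0.38, -0.25 and -0.73 in tamoxifen pools and 1.08, 0.22 and 0.06 in control pools. The part of proliferating cells in the values of Cip2a and Mastl was not tested. Ensa and Arpp19, the small proteins that Greatwall phosphorylates to block B55, were nearer to control, with log2 differences of -0.05 (95% interval -0.38 to 0.29) and -0.15 (95% interval -0.36 to 0.07). Set, a further inhibitor, had -0.07. Ppp2r2c was 80.2 in control pool 1, as in the other control pools, and without that pool its log2 difference was 1.94.

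**Figure D5:**
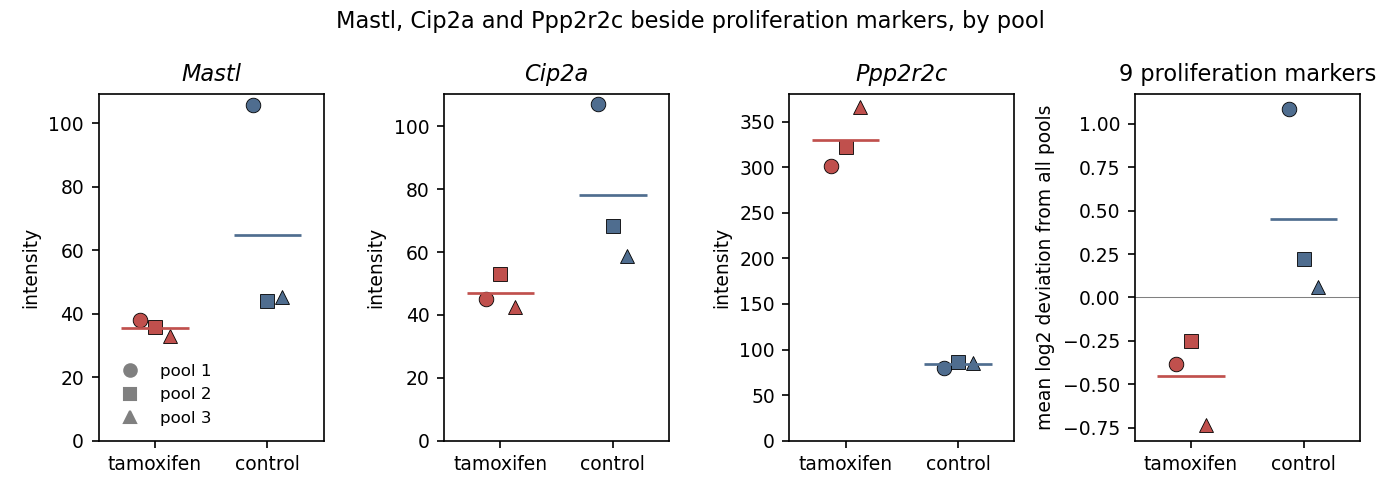
Intensity of Mastl, Cip2a and Ppp2r2c and the mean log2 deviation of 9 proliferation markers from their mean over all pools, for each tamoxifen pool (left) and control pool (right), with group means as bars. Control pool 1 is the highest for Mastl (106), Cip2a (107) and the markers (1.08) but not for Ppp2r2c (80.2).

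Of the partners of the striatins in the STRIPAK complex, which joins PP2A to kinases of the germinal center kinase family, 11 were measured. Their median log2 difference was -0.02, and 0 rose and 0 fell. At an unadjusted p under 0.05, 1 was lower, against 6.3% of all genes. Stk25, one of these kinases, had 1398, 1433 and 1406 in tamoxifen pools against 1755, 1617 and 1585 in control pools. The groups did not overlap (log2 difference -0.23, 95% interval -0.39 to -0.06, unadjusted p = 0.017, adjusted p = 0.295 from limma). Sike1, a small coiled-coil partner, had -0.19 (adjusted p = 0.423). Control pool 1 was the highest of the 6 pools in 28 of the 67 genes measured over all PP2A lists without Ppp2r2c (41.8%), against 28% of all genes. Of the 67 genes, 14 (20.9%) lay wholly below control, against 12.4% of all genes. A control pool is the highest in any such gene, and it was control pool 1 in 12 of the 14 (85.7%), against 66.5% of the 2167 such genes among all genes.

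The genes whose pattern over the 6 arrays was most like that of Ppp2r2c were found by the root mean square distance between log2 values, each gene centred on its own control mean. They were Padi2, a peptidylarginine deiminase gene, at a distance of 0.161, Fam183b at 0.165, Fgf12, an intracellular fibroblast growth factor family gene, at 0.174, 1700007K13Rik at 0.233, Sytl5, a synaptotagmin-like gene, at 0.284, and Gm20781 at 0.288. Padi2 had 543, 534 and 670.1 in tamoxifen pools against 149, 165 and 191 in control pools, and as in Ppp2r2c tamoxifen pool 3 was the highest. Fgf12 had 192, 182 and 195 in tamoxifen pools against 59.9, 51.8 and 51.1 in control pools. These genes were found by the same contrast in which Ppp2r2c was chosen, so their log2 differences of 1.74 to 1.96 describe the likeness and carry no test.

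Since Ppp2r2c is best known from the brain, markers of neurons and nerve were set beside it. Of 9 listed markers 6 were measured, of which 0 rose and 0 fell. Without adjustment 3 were higher and 0 lower at p under 0.05, against 6.91% and 6.3% of all genes, and 0 were at an intensity of 0. Their summed level was 1315 to 1372 in tamoxifen pools and 1239 to 1393 in control pools. Sox10 was the brightest of the 6 and weighs most in that sum. With each gene weighted alike, the mean log2 deviation of the 6 was 0.09, 0.09 and 0.06 in tamoxifen pools. In control pools it was -0.05, -0.14 and -0.05. Stmn2, a neuronal stathmin gene, had 320.5, 346 and 327 in tamoxifen pools against 179.7, 209.6 and 226 in control pools (log2 difference 0.70, 95% interval 0.45 to 0.94, adjusted p = 0.069 from limma). S100b, a calcium-binding protein gene of glia, had 182, 194 and 186 in tamoxifen pools against 144, 144 and 159 in control pools, while Sox10, which glia share with mammary cells, had 579, 564 and 648 in tamoxifen pools against 838, 685 and 646 in control pools. Of the 6 nerve markers, 3 lay wholly above control and 0 wholly below, against 10.5% and 12.4% of all genes. These 3 were Stmn2, S100b (log2 difference 0.34, adjusted p = 0.161 from limma) and Snap25 (0.23, adjusted p = 0.317). Syt1 (-0.11) and Sox10 (-0.27) had negative differences, and their groups overlapped. The part of nerve cells in the level of Ppp2r2c was not tested. Among the hormone-sensing luminal markers, Esr1, the gene of estrogen receptor alpha, had 605, 549 and 656 in tamoxifen pools against 659.8, 836 and 1016 in control pools (log2 difference -0.45, adjusted p = 0.357). The other 3 measured genes of that list had positive differences, 0.19 in Pgr, 0.07 in Foxa1 and 0.43 in Cited1, whose groups did not overlap (adjusted p = 0.163 from limma). Of the 4 genes 0 rose and 0 fell, and the median was 0.13. Wholly above control lay 1 gene, Cited1, and wholly below lay 1, Esr1, against 10.5% and 12.4% of all genes.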

How the data were processed

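The authors deposited 1 intensity per probeset and array on a linear scale for 6 arrays. MAS5 and mm9 appear in the submitters' processing notes without a stated role. For background correction and scaling between arrays, the method is not given in the sources used here. Per its labels the array is a Mouse Exon ST array, but by the methods of the paper a Mouse Gene ST array. No detection calls are used. Gene symbols came from the platform annotation, with 1 symbol for 18286 of 22369 probesets, several for 1276 and none for 2807. Names and gene order came from RefSeq (GRCm38.p6). Of 77 listed PP2A genes 68 were measured, and the rest, like Trp53, are not analysed here.

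The log2 of each intensity, without offset or filter, was fitted with limma 3.58.1 in R 4.3.3, the group as the only term (4 residual and 2.35 prior degrees of freedom). On simulated arrays limma called 76 of 100 probesets changed by 1 on the log2 scale and 91 of 100 changed by 2, with 4 false calls among 22169. Noise was drawn independently for each probeset and array, so deviations that genes share within a pool were not simulated. Tables and plots used Python 3.11.15. The members and lists were chosen with earlier results of these data known. Named genes were all members, the 2 smallest p of each list, 6 genes with the most similar pattern and 4 measured neighbours on each side. Other genes, such as Ppp2r5c, Ppp2r5d, Ppp2r5e, Ppme1, Ensa, Arpp19, Set, Stmn2, S100b, Snap25, Syt1, Sox10, Esr1, Pgr, Foxa1 and Cited1, were named after their values were seen. The labels give pooled mice and no shared batch, so p-values measure the spread between pools. The number of arrays limits the precision. The alternatives were an equal-variance test without moderation (the methods' t-test), a robust variance trend, quantile normalization, median centring, a filter at the median intensity, an offset of 32, 1 probeset per gene, a replicate block and each array left out.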

Additional observations from a re-analysis of the deposited data

How the results depend on the processing

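Of the 9 PP2A members other than Ppp2r2c, and of all 67 genes measured over the PP2A lists without Ppp2r2c, 0 rose and 0 fell under each of the 14 alternatives, with 7 and 59 of them tested where dim probesets were left out. The log2 difference of Ppp2r2c was 1.64 to 2.04 over them, lowest with an offset of 32 (3.12-fold) and 1.90 to 2.04 with 1 array left out. Over all probesets, 63 rose and 24 fell. These counts were 15 and 2 by the methods' t-test, 136 and 54 with the variance trend, 129 and 65 when dimmer probesets (below the median intensity) were left out, 116 and 45 with the offset, and 13 and 2 with the replicate block. They were 18 to 27 and 2 to 6 with 1 array left out, where fewer samples were fitted; for the others the cause was not tested. Same-numbered pools did not deviate together over all probesets (correlations 0.054, 0.0072 and -0.042). Such correlations cannot exclude a pairing that acts on some genes only, and the labels name no shared batch.

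Of 425 values of 31 other named genes, 409 kept their direction and 16 turned, and 0 passed the threshold. With median centring the log2 difference was 0.02 in Ppp2ca, Ppp2r1a and Ppp2r1b, and with quantile normalization 0.01 in Ppp2r1b. With 1 array left out it was -0.01 to 0.00 in Ppp2ca, -0.03 to 0.03 in Ppp2r1a, -0.03 to 0.02 in Ppp2r1b, -0.02 to 0.08 in Ppp2r2d, -0.01 to 0.06 in Crmp1, -0.14 to 0.02 in D5Ertd579e and -0.67 to 0.15 in Mrfap1.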

Other observations

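The measured catalytic and regulatory genes of the related phosphatases PP1, PP4 and PP6 had log2 differences between -0.15 and 0.05. Of 11 measured genes 0 rose and 0 fell by limma or under any of the 14 alternatives, and the median log2 difference was -0.01. Wholly above control lay 1 gene, and wholly below lay 2, Ppp1ca and Ppp4r1, against 10.5% and 12.4% of all genes. At an unadjusted p under 0.05, 0 were higher and 0 lower, against 6.91% and 6.3% of all genes. Ppp1ca, a catalytic subunit of PP1, had 1747, 1846 and 1738 in tamoxifen pools against 2196, 1867 and 1862 in control pools (log2 difference -0.15, 95% interval -0.36 to 0.07), with control pool 1 the highest and a difference of -0.07 without it. Ppp4r1, a regulatory subunit of PP4, had -0.09 (95% interval -0.25 to 0.07). Ppp1cc, a catalytic gene of PP1 named after its values were seen, was dim (log2 difference -0.04, 95% interval -0.35 to 0.28).

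Of 15 measured genes for proteins that PP2A dephosphorylates or that act beside it, 0 rose and 0 fell. Without adjustment 0 were higher and 1 lower at p under 0.05, against 6.91% and 6.3% of all genes. Wholly above control lay 2 genes, Apc and Myc, and wholly below lay 1, Foxo3, against 10.5% and 12.4% of all genes. The median log2 difference was -0.01. Foxo3, a transcription factor that AKT holds in check, had 849.8, 789.99 and 933 in tamoxifen pools against 1063, 1010.1 and 1014 in control pools, and the groups did not overlap (log2 difference -0.27, 95% interval -0.47 to -0.07, adjusted p = 0.298 from limma). Apc, a part of the complex that degrades beta-catenin, had 1060.5, 1049.9 and 1115 in tamoxifen pools against 854, 1003 and 1027 in control pools (log2 difference 0.17, 95% interval -0.06 to 0.39, and 0.08 without control pool 1). Myc, whose protein PP2A with B56α marks for decay, had 7148, 7154 and 6965 in tamoxifen pools against 6402, 6956 and 6690 in control pools (log2 difference 0.09, 95% interval -0.07 to 0.25), a gene named after its values were seen.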
